A study of Mus musculus with 6 samples.

Results

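Aminoacyl-tRNA synthetases are the enzymes that join each amino acid to its matching tRNA, the step that supplies ribosomes with charged tRNA. The genes were chosen by symbol alone: a single letter followed by ars, with or without 1 or 2, or Eprs, Farsa or Farsb. This rule found 37 of the 17485 genes in the count tables. No measured value entered it, but the members were chosen with earlier results of these data known. Symbols ending in 2 name enzymes of the mitochondrial matrix (17 genes, of which 16 are described), and the other 20 name cytoplasmic enzymes. The transcripts were measured by bulk RNA sequencing in E14 mESCs, mouse embryonic stem cells with a 129/Ola background, kept pluripotent with serum and leukaemia inhibitory factor. All cells were treated 24 h after seeding. Cycloheximide, which blocks translation elongation on cytoplasmic ribosomes, was applied for either 3 h or 6 h at a dose of 250 µg/mL, with 0.007% ethanol as the carrier. The control group was exposed to ethanol only, for 9 h. Each of the 3 groups had 2 libraries. The labels give 1 unmodified line and no genetic change, and do not say whether replicate libraries came from separate cultures, so p-values measure only the spread between these libraries. The controls had a longer exposure than either treated group.

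Cytoplasmic and mitochondrial protein synthesis use separate sets of tRNAs, and most amino acids have a separate nuclear gene for the enzyme of each compartment. Exceptions are Gars and Kars, each of which gives rise to both the cytoplasmic and the mitochondrial enzyme. Glutamine is another, since mitochondria make glutaminyl-tRNA by amidating a mischarged tRNA. Several cytoplasmic enzymes sit in a multisynthetase complex held together by the scaffold proteins encoded by Aimp1, Aimp2 and Eef1e1. The transcription factor ATF4, translated more when amino acids are short, is known to bind C/EBP-ATF response elements, some of them near synthetase genes.

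Library totals ranged from 9385447 to 27351079 counts, and the smallest was a control. Levels are given as CPM, counts relative to the library total after scaling by the trimmed mean of M values (TMM), listed for both control, both 3 h and both 6 h libraries in replicate order. All 36 described members passed the filter on low counts, which left 12755 genes to test. The detection floor of 3 counts equalled 0.11 to 0.32 unscaled CPM and covers counting error only. All 10 embryonic stem cell markers on the list passed the filter. Their summed CPM was 7215 to 7383 in controls, 8250 to 8507 at 3 h and 5776 to 5983 at 6 h. Sox2 made up much of the sum and of its 3 h value, with 2282 and 2602 CPM in controls and 3849 and 3958 at 3 h, while Zfp42, Utf1 and Tdh stood below both controls at 3 h. Of 8 fibroblast markers 6 were listed in the files, with sums of 3.83 to 11.2 CPM over all libraries and at most 3 counts of Dcn. The 4 neural markers, mostly Tubb3, summed to 337 to 347 CPM in controls, 288 to 334 at 3 h and 144 to 149 at 6 h. The 5 primitive endoderm markers stood at 5.41 to 7.58, 14.0 to 18.8 and 12.2 to 14.2 CPM, and the 3 mesoderm markers at 4.28 to 10.4 over all libraries. Mitochondrial-chromosome transcripts made up 24.7% to 24.9% of control counts, 18.9% to 19.6% at 3 h and 16.6% to 17.4% at 6 h. The stem cell, neural, primitive endoderm and mitochondrial-chromosome levels of controls did not overlap those of either treated group. The fibroblast sums overlapped the controls at 3 h but not at 6 h, and the mesoderm sums overlapped them at both times. The part of all these levels in the results was not tested. In bulk RNA, fewer cells of a type and less RNA per cell cannot be told apart.

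On the TMM scale cytoplasmic synthetase transcripts were lower after 6 h of cycloheximide, a result that depended on scaling and on single libraries, as given below. Of the 20 genes, 12 were called lower and 0 higher at 6 h (edgeR quasi-likelihood test, Benjamini-Hochberg adjusted p under 0.05, which defines called throughout). Over all tested genes, 14.3% were called lower and 14.8% higher in the same comparison. The median log2 fold change of the 20 was -0.52, with a range from -0.76 for Nars to 0.21 for Farsa, against a median of 0.04 over all tested genes. On the TMM scale both 6 h libraries lay below both control libraries for 19 of the 20. The exception was Farsa. No share over all tested genes is given for this or later counts of non-overlapping libraries, so they have no background.

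At 3 h 0 of the 20 cytoplasmic members were called by edgeR. At an unadjusted p under 0.05 there were 8, all lower (Aars, Gars, Hars, Kars, Mars, Nars, Sars and Tars), against 1333 lower and 1816 higher of the 12755 tested genes. DESeq2 called 4 of these lower (Aars, Gars, Nars and Tars) and limma-voom 0. Over all 12755 tested genes DESeq2 called 661 lower and 786 higher at 3 h. Of all tested genes, edgeR called 1.3% lower and 3.6% higher at 3 h. The median of the 20 was -0.33 against 0.02 for all tested genes, and 19 were below 0. For 16 the 3 h libraries lay below both controls on the TMM scale, also without an all-gene share. Both comparisons with control share the same control libraries. The plot of log2 fold changes by gene shows the members in both comparisons.

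**Figure D1:**
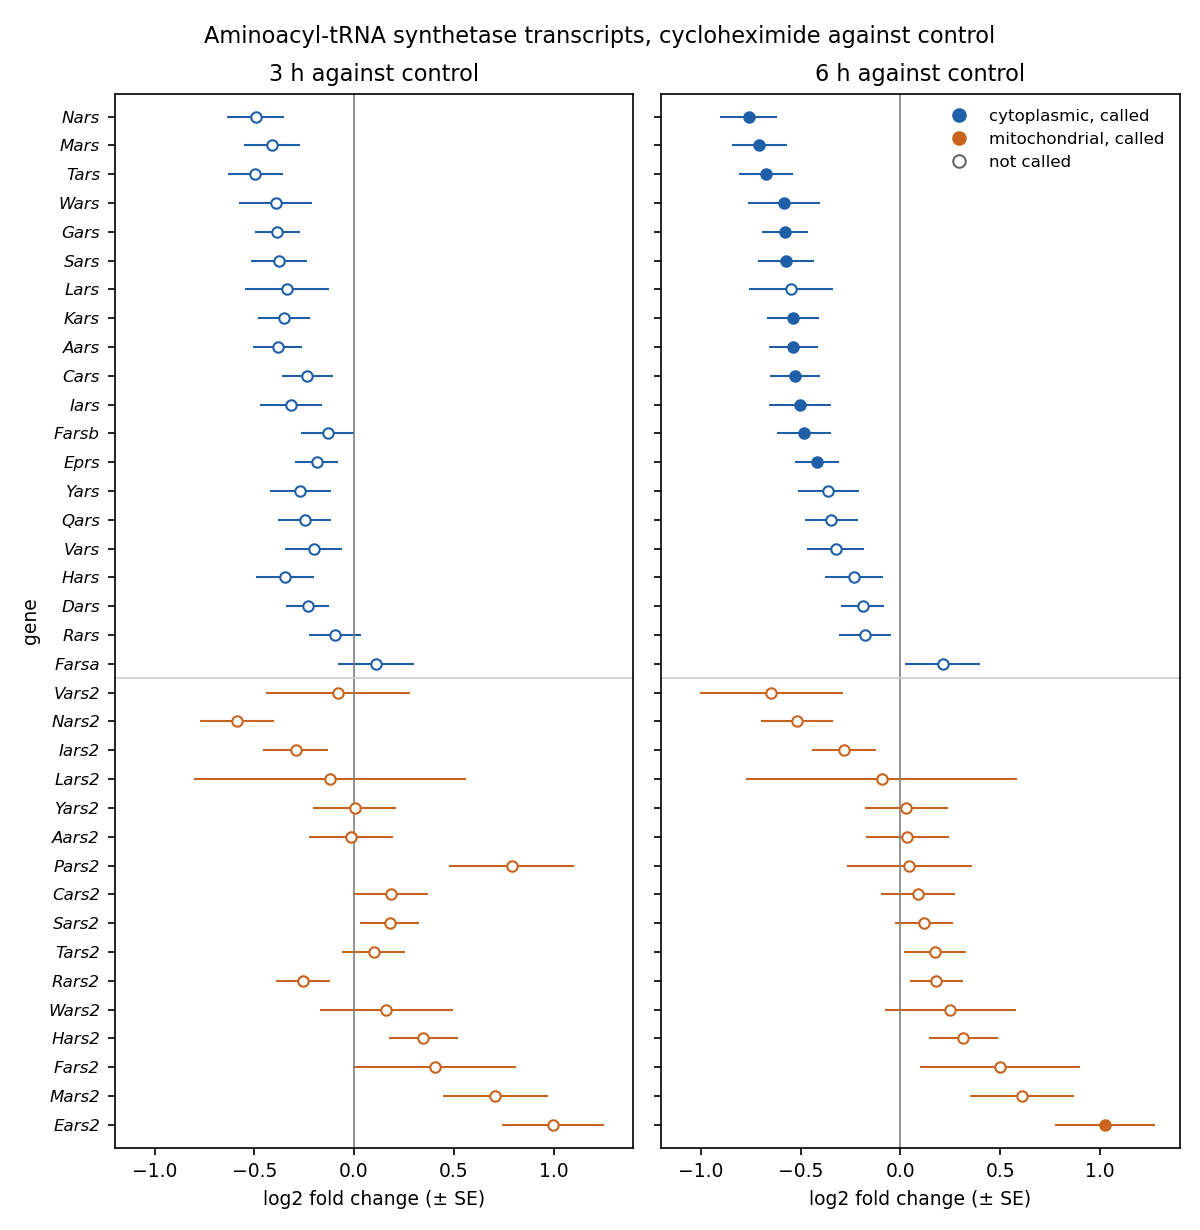
Log2 fold change of each of the 36 genes (rows) at 3 h (left) and 6 h (right) against control; bars are the standard error of the fit, and filled points are called at adjusted p under 0.05. On the TMM scale 19 of 20 cytoplasmic genes lie left of 0 at both times, and 12 are filled at 6 h; with library totals alone 15 lie left of 0 at 3 h and 14 at 6 h, none of them called.

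The change at 6 h depended on scaling and on single libraries. With library totals in place of TMM, the median over all genes at 6 h moved to 0.40, the cytoplasmic median was -0.16, which is -0.56 relative to that all-gene median on either scale, and 0 members were called lower and 1, Farsa, higher. Without 6 h replicate 2 the edgeR count was 0 and without 6 h replicate 1 it was 6; over all genes the higher and lower calls fell to 726 and 586 without 6 h replicate 2, from 1882 and 1821.

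Nars, which charges asparagine tRNA, had the largest drop in the family. It stood at 440.4 and 368 CPM in controls, 306 and 269 at 3 h, and 263 and 214 at 6 h. The groups did not overlap on the TMM scale, where the 6 h log2 change was -0.76 ± 0.14 SE (edgeR adjusted p = 0.00646). With library totals alone the 3 h libraries of Nars (309 and 278 CPM) overlapped its 6 h libraries (292 and 241). Mars, the methionyl enzyme that also charges the initiator tRNA, read 60.8 and 55.7 CPM in controls, 40.7 and 47.0 at 3 h, and 36.1 and 35.4 at 6 h. Each group lay below the one before it, with a log2 change at 6 h of -0.71 ± 0.14 (SE; edgeR adjusted p = 0.00762). Tars, the threonyl enzyme, read 194 and 251.1 CPM in controls, 163 and 153 at 3 h, and 140.2 and 139 at 6 h. The 2 control libraries were far apart, but both exceeded every treated library, and the 6 h change was -0.67 ± 0.14 (SE; edgeR adjusted p = 0.00869).

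Gars and Kars, the genes that serve both compartments, were lower with the cytoplasmic set on the TMM scale. Gars, the glycyl enzyme, stood at 174 and 191 CPM in controls, 146 and 134 at 3 h, and 125 and 120 at 6 h (log2 change -0.58 ± 0.11 SE, edgeR adjusted p = 0.00763). Kars, the lysyl enzyme, stood at 168 and 207 CPM in controls, 153 and 141 at 3 h, and 132 and 126 at 6 h (log2 change -0.54 ± 0.13 SE, edgeR adjusted p = 0.0175). In both genes the 3 groups stood in the order control, 3 h, 6 h with no overlap on the TMM scale. With library totals alone the treated groups of both genes overlapped each other. Kars at 3 h (155 and 145 CPM) then also overlapped its controls (147 and 181). The counts do not separate the mRNA forms that encode the mitochondrial and the cytoplasmic protein. Without these 2 genes, 10 of 18 cytoplasmic members were called lower.

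Aars, the alanyl enzyme, had 523 and 535 CPM in controls, 423 and 389 at 3 h, and 404 and 326 at 6 h. Its treated groups overlapped each other but not the controls, and the 6 h change was -0.54 ± 0.12 (SE; edgeR adjusted p = 0.0137). Sars, the seryl enzyme, had 179 and 171 CPM in controls, 149 and 121 at 3 h, and 127 and 108 at 6 h. Cars, the cysteinyl enzyme, had 102 and 98.6 CPM in controls, 92.0 and 78.4 at 3 h, and 70.8 and 68.1 at 6 h. Their log2 changes at 6 h were -0.57 ± 0.14 for Sars and -0.53 ± 0.13 for Cars (SE; edgeR adjusted p = 0.0178 and 0.0167). Treated libraries of both genes lay below the controls on the TMM scale. With library totals alone 3 h replicate 1 did not: Sars read 150 CPM (controls 156 and 149) and Cars 93.1 (controls 89.0 and 86.0).

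Wars and Iars passed the threshold by little. Wars, the tryptophanyl enzyme, had 34.4 and 45.1 CPM in controls, 28.9 and 31.3 at 3 h, and 29.1 and 23.7 at 6 h, a log2 change of -0.58 ± 0.18 (SE; edgeR adjusted p = 0.0406). Iars, the isoleucyl enzyme of the multisynthetase complex, had 71.5 and 79.2 CPM in controls, 57.9 and 62.9 at 3 h, and 46.5 and 59.8 at 6 h, a log2 change of -0.50 ± 0.16 (SE; edgeR adjusted p = 0.0406). With library totals alone the 3 h and 6 h libraries of both genes overlapped their controls. Of 17 alternative settings, Wars lost its call in 10 and Iars in 9, all without a change of sign.

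**Figure D2:**
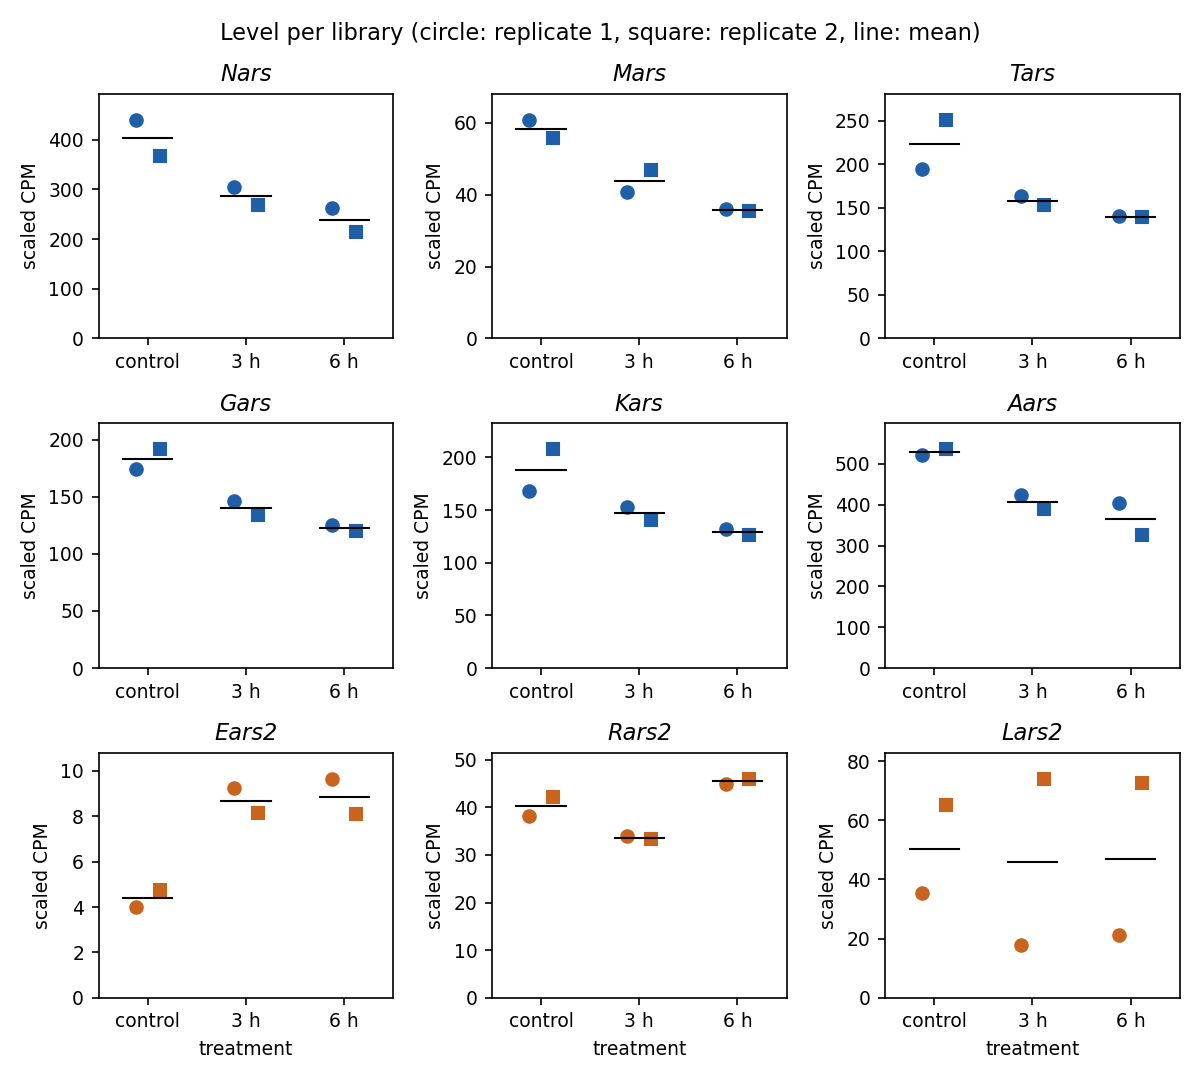
TMM-scaled CPM of 9 genes in each of the 6 libraries (vertical axis from 0; circle replicate 1, square replicate 2, line the mean of 2), blue for cytoplasmic and orange for mitochondrial enzymes. The 6 cytoplasmic genes are highest in controls, Ears2 is highest in treated libraries, Rars2 is on this scale lowest at 3 h and highest at 6 h (with library totals alone its 3 h libraries lie between the controls), and replicate 2 of Lars2 is higher than replicate 1 in every group.

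The other called cytoplasmic genes were Farsb and Eprs. Phenylalanyl-tRNA synthetase is built from an alpha subunit encoded by Farsa and a beta subunit encoded by Farsb. Of their transcripts only Farsb was called, and the difference between them was not tested. Farsb had 209 and 217 CPM in controls, 195 and 193 at 3 h, and 171 and 133 at 6 h, a log2 change of -0.48 ± 0.13 (SE; edgeR adjusted p = 0.0279). With library totals alone the 3 h libraries of Farsb (197.4 and 199.5 CPM) lay above both controls (182.8 and 188.9). Its 6 h libraries (189.5 and 150.6) then lay on either side of the controls. Farsa had 49.0 and 47.8 CPM in controls, 57.7 and 46.7 at 3 h, and 65.6 and 46.4 at 6 h. Replicate 1 of each treated group was above the controls and replicate 2 was below them, so the groups overlapped (log2 0.21 ± 0.19 SE at 6 h, edgeR adjusted p = 0.437). Eprs, 1 polypeptide that charges both glutamate and proline tRNA, had 332 and 297 CPM in controls, 279.7 and 273 at 3 h, and 246 and 225 at 6 h, with a log2 change of -0.42 ± 0.11 (SE; edgeR adjusted p = 0.0219). With library totals alone its 3 h (283 and 282 CPM) and 6 h libraries (272 and 254) overlapped the controls (290 and 259).

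The 8 cytoplasmic genes that were not called at 6 h were Lars, Yars, Qars, Vars, Hars, Dars, Rars and Farsa. Lars, the leucyl enzyme, had a log2 change of -0.55 ± 0.21 (SE; edgeR adjusted p = 0.0817), as large as called members, and its 3 h libraries were far apart at 143 and 88.9 CPM. Yars, Qars and Vars, the tyrosyl, glutaminyl and valyl enzymes, stood at -0.36, -0.35 and -0.32. Hars, Dars and Rars, the histidyl, aspartyl and arginyl enzymes, stood at -0.23, -0.19 and -0.18 (SE 0.14, 0.11 and 0.13). For all of these except Farsa, both 6 h libraries lay under both controls on the TMM scale. With library totals alone the 6 h libraries of Lars, Yars, Qars, Vars and Hars overlapped the controls. Those of Dars (341 and 383 CPM) and Rars (109 and 123) lay above both controls (318 and 326 for Dars, 107 and 98.6 for Rars).

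Enzymes inside and outside the multisynthetase complex were both represented among the called genes. Among the 8 complex members (Dars, Eprs, Iars, Kars, Lars, Mars, Qars and Rars) 4 were called lower at 6 h, with a median of -0.46 and a range from -0.71 for Mars to -0.18 for Rars. Among the 12 outside it 8 were called lower, with a median of -0.53. Synthetases also fall into 2 structural classes with unrelated catalytic folds. The 9 class I genes had 4 called and a median of -0.50, and the 10 class II genes had 7 called and a median of -0.54, with Eprs, which holds both folds, left out. Over all tested genes 14.3% were called lower at 6 h, and with library totals alone 0 of the 20 cytoplasmic members were called lower. The subgroup values are counts and medians only, with no test between the subgroups.

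All 3 scaffold genes of the complex were called lower at 6 h on the TMM scale, where 14.3% of all tested genes were called lower. Their levels and calls are not given with library totals alone, and the calls of the synthetases depended on scaling. Aimp1 had 60.0 and 55.2 CPM in controls, 36.6 and 37.5 at 3 h, and 25.5 and 23.7 at 6 h. The 3 groups were well apart, and Aimp1 was called at both times, with log2 changes of -0.64 ± 0.14 at 3 h and -1.23 ± 0.14 at 6 h (SE; edgeR adjusted p = 0.0364 and 0.000783). Aimp2 had 55.6 and 60.4 CPM in controls, 54.0 and 51.0 at 3 h, and 39.3 and 40.9 at 6 h (log2 -0.53, edgeR adjusted p = 0.0175). Eef1e1, also called Aimp3, had 305 and 309 CPM in controls, 244 and 233 at 3 h, and 179 and 195 at 6 h (log2 -0.72, edgeR adjusted p = 0.00251). Aimp1 thus fell by more than any of the 20 cytoplasmic enzymes in these point estimates, a difference that was not tested.

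Promoter sequence is shown for the cytoplasmic genes because a known regulator of several of them, ATF4, has a defined response element. RefSeq windows (GRCm38.p6, from 250 bases before to 50 after each transcription start) were held for 13 cytoplasmic and 14 mitochondrial members. Both strands were searched for TGATGNAA, the core of the C/EBP-ATF response element, and for CACGTG, the E-box bound by MYC and related factors. The C/EBP-ATF core was in 5 of 13 cytoplasmic windows (Aars, Gars, Iars, Tars and Yars) and 0 of 14 mitochondrial ones, against 4.51% of 27025 genes. The E-box was in 4 of 13 cytoplasmic windows (Aars, Farsb, Iars and Tars) and 1 of 14 mitochondrial ones (Ears2), against 8.09% of genes. The 2 motifs share no overlapping match in the sequences below. In each of the following stretches, written on the gene's strand, capitals mark the match, and for the first 3 it is the reverse complement of the core.
Aars, C/EBP-ATF core, chr8:111033704-111033763, plus strand: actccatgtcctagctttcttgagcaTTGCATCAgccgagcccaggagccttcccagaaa
Gars, C/EBP-ATF core, chr6:55037945-55038000, plus strand: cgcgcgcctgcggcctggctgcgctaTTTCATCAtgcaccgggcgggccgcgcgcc
Tars, C/EBP-ATF core, chr15:11399659-11399699, minus strand: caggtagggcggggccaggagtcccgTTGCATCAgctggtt
Aars, E-box, chr8:111033670-111033727, plus strand: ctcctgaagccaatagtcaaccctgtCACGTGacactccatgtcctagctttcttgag
Farsb, E-box, chr1:78488905-78488962, minus strand: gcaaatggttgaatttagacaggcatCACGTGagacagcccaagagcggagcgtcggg
Iars, E-box, chr13:49682035-49682092, plus strand: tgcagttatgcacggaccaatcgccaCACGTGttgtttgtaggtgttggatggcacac

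Counted from the end of the match, the cores lie 105 bases before the transcription start of Aars, 23 before that of Gars and 8 before that of Tars. The E-boxes lie 141, 34 and 64 bases before the starts of Aars, Farsb and Iars. The core matches of Iars and Yars, a second core of Aars and the E-boxes of Tars and Ears2 lie downstream of the start. All of Aars, Gars, Tars, Farsb and Iars were among the 12 called lower at 6 h, while Yars, which holds a core, was not called (-0.36, edgeR adjusted p = 0.113). Among called genes with a window, 4 of 9 held a core and 4 of 9 an E-box, and among the cytoplasmic genes not called these counts were 1 and 0 of 4. Mars, Sars, Kars and Eprs were called lower with neither motif in the window. A match is a description of letters in this window and not evidence of binding. Windows were not held for Cars, Hars, Lars, Nars, Rars, Vars, Wars, Hars2 and Pars2.

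Mitochondrial synthetase transcripts were divided in direction on the TMM scale. Of the 16 genes 1 was called higher (Ears2) and 0 lower at 6 h by edgeR, and DESeq2 and limma-voom made the same call. Over all tested genes 14.8% were called higher and 14.3% lower, so these counts do not exceed the background. At an unadjusted p under 0.05 there were 2 higher (Ears2 and Mars2) and 1 lower (Nars2), against 2755 higher and 2524 lower of the 12755 tested genes. The median was 0.10, with 12 genes above 0 and 4 below and a range from -0.65 for Vars2 to 1.03 for Ears2. At 3 h edgeR called 0, with a median of 0.13. An unadjusted p under 0.05 was found for Ears2, Mars2 and Pars2 (higher) and Nars2 (lower). Over all tested genes 1816 were higher and 1333 lower at that threshold. DESeq2 called Ears2 higher at 3 h, as it did 786 of the 12755 tested genes, and limma-voom called 0. With library totals alone the 6 h median was 0.46, near the all-gene median of 0.40 on that scale, and 6 were called higher (Ears2, Hars2, Mars2, Rars2, Sars2 and Tars2), where 28.8% of all tested genes were called higher.

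Ears2, the mitochondrial glutamyl enzyme, was low in every library. It had 4.0 and 4.77 CPM in controls (54 and 39 counts), 9.24 and 8.15 at 3 h, and 9.64 and 8.09 at 6 h. Treated libraries did not overlap the controls, and the log2 change was 1.00 ± 0.25 at 3 h and 1.03 ± 0.25 at 6 h (SE; edgeR adjusted p = 0.0612 and 0.0177). Ears2 lost its 6 h call without control replicate 1 and without either 6 h replicate, with an adjusted p of at most 0.112 over the 17 alternatives.

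Lars2, the mitochondrial leucyl enzyme, split by replicate number and not by treatment. It had 35.6 and 65.1 CPM in controls, 17.8 and 73.9 at 3 h, and 21.2 and 72.7 at 6 h. Replicate 2 was the higher library in every group, and the SE of the 6 h change was 0.68. The precursor ribosomal RNA gene Rn45s also varied widely between replicates, but with replicate 1 higher in controls (5124 and 1914 CPM) and at 3 h (4746 and 1594) and replicate 2 higher at 6 h (2181 and 5595).

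Of the remaining mitochondrial genes, several had non-overlapping groups on the TMM scale without passing the test, with no all-gene share to set beside them. Nars2, the asparaginyl enzyme, lay under the control range at both times, with 15.6 and 15.5 CPM in controls, 10.8 and 9.94 at 3 h, and 10.9 and 10.8 at 6 h (edgeR adjusted p = 0.1 and 0.0624). Mars2, which charges the single mitochondrial methionine tRNA, had 7.34 and 12.5 CPM in controls, 17.5 and 14.3 at 3 h, and 14.8 and 14.9 at 6 h (edgeR adjusted p = 0.142 and 0.112). Pars2, the prolyl enzyme, was above the controls at 3 h only, with 4.0 and 3.67 CPM in controls, 5.62 and 7.69 at 3 h, and 3.53 and 4.41 at 6 h. Hars2, the histidyl enzyme, stood at 20.4 and 27.4 CPM in controls and at 28.6 to 30.6 in the 4 treated libraries. Iars2, the isoleucyl enzyme, stood at 22.2 and 25.8 CPM in controls and at 18.5 to 20.5 in treated libraries. Aars2, Cars2, Fars2, Rars2, Sars2, Tars2, Wars2 and Yars2 had log2 values between 0.03 and 0.50 at 6 h, and Vars2, at 2.26 to 4.74 CPM, had -0.65 with an SE of 0.36.

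The summed levels put both compartments side by side. The 20 cytoplasmic genes summed to 3465 and 3521 CPM in controls, 2958 and 2667 at 3 h, and 2602 and 2430 at 6 h. On the TMM scale these sums were lower at each later time, without overlap between groups. With library totals alone the 3 h and 6 h sums overlapped, and all treated sums lay below both controls. The 16 mitochondrial genes summed to 285 and 366 CPM in controls, 309 and 359.9 at 3 h, and 318 and 367 at 6 h, and without Lars2 to 249.6 and 301 in controls, 291 and 286 at 3 h, and 297 and 295 at 6 h. The ratio of the 2 sums without Lars2, on which scaling has no effect, was 13.9 and 11.7 in controls, 10.2 and 9.33 at 3 h, and 8.76 and 8.25 at 6 h. All treated ratios lay below both control ratios. The difference between the cytoplasmic and the mitochondrial median log2 change at 6 h was -0.62 with TMM and with library totals alone, and from -0.68 to -0.53 over the settings run; at 3 h it was -0.46 (from -0.50 to -0.31).

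**Figure D3:**
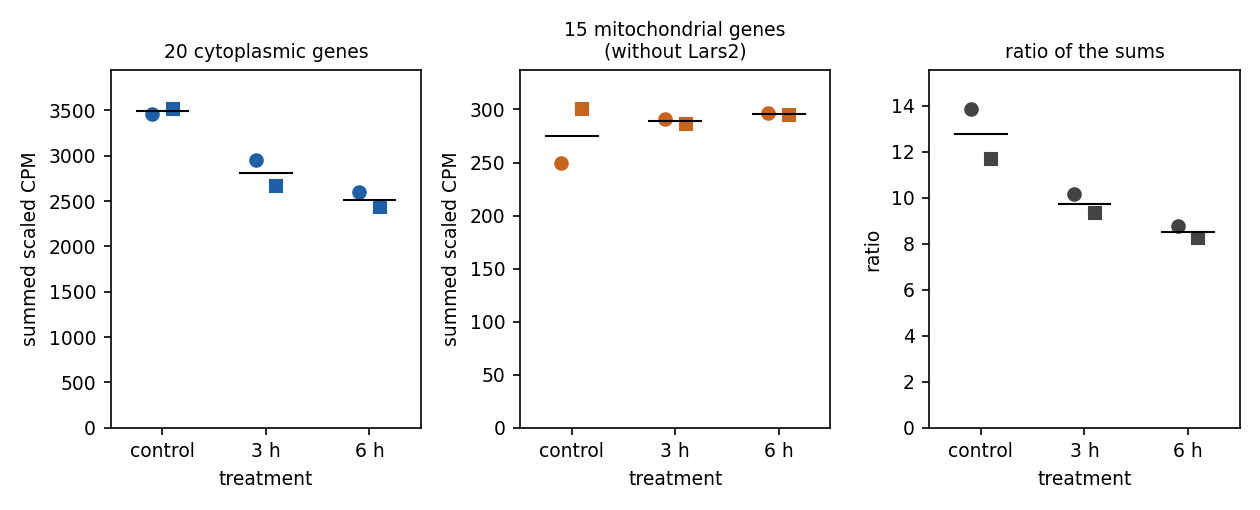
Summed TMM-scaled CPM of the 20 cytoplasmic genes, of 15 mitochondrial genes without Lars2, and the ratio of the sums, in each library (axes from 0; circle replicate 1, square replicate 2, line the mean of 2). The cytoplasmic sum goes from 3465 and 3521 in controls to 2602 and 2430 at 6 h, while the mitochondrial sum at 6 h (297 and 295) lies between the 2 controls (249.6 and 301).

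Pairing the enzymes by amino acid asks whether the 2 compartments differ for the same substrate. There were 17 pairs for 16 amino acids, with Eprs and Fars2 each used in 2 pairs, and the log2 ratio of cytoplasmic to mitochondrial level (each CPM plus 0.5) was taken within a library, where scaling cancels except through the added 0.5. The ratio compares libraries, not the levels of the 2 genes. At 6 h the ratio was lower than in controls in 16 pairs and higher in 1, valine (0.24), with a median change of -0.54. In 13 pairs both 6 h libraries lay below both controls, and in 0 did both lie above, with no share over other gene pairs counted. At 3 h the ratio was lower in 14 pairs, with a median of -0.40.

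Glutamate and methionine had the largest shifts. The log2 ratio of Eprs to Ears2 was 6.21 and 5.82 in controls, 4.85 and 4.98 at 3 h, and 4.60 and 4.72 at 6 h, a change of -1.35 at 6 h. The log2 ratio of Mars to Mars2 was 2.97 and 2.12 in controls, 1.19 and 1.68 at 3 h, and 1.26 and 1.22 at 6 h, a change of -1.30. In both pairs the cytoplasmic gene was lower and the mitochondrial gene higher than in controls. Asparagine differed from most pairs in that both genes were lower (Nars -0.76 and Nars2 -0.52), and its ratio overlapped the controls. The plot of paired changes shows each amino acid.

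**Figure D4:**
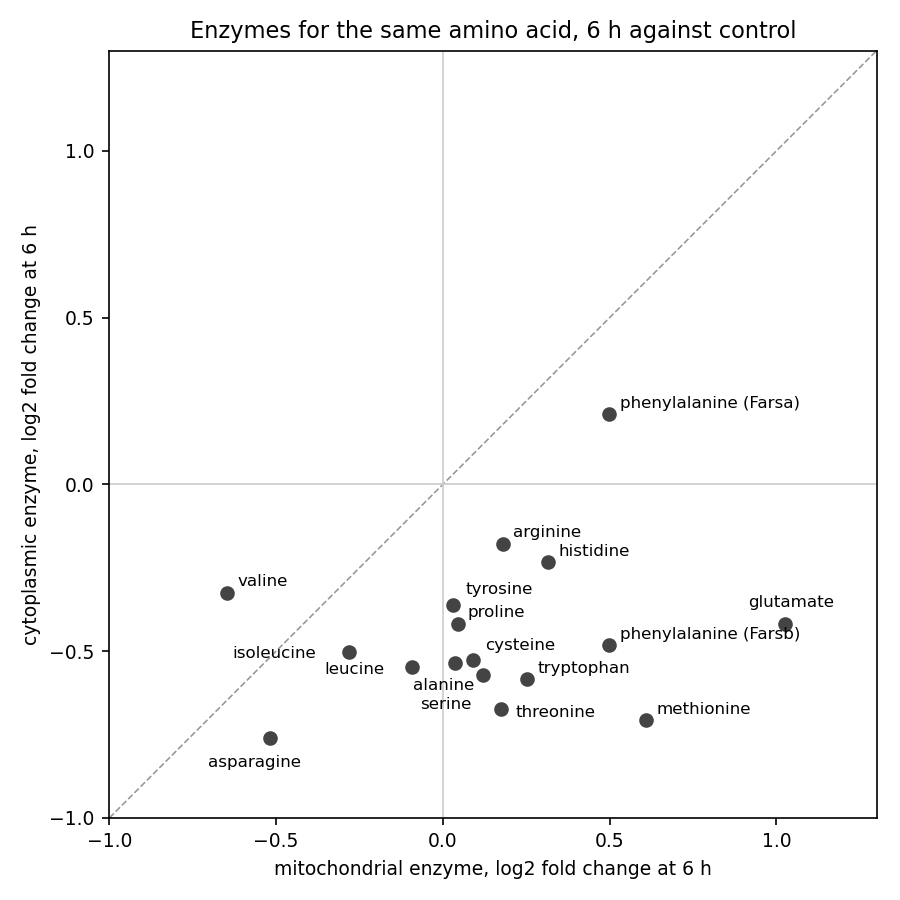
Log2 fold change at 6 h of the cytoplasmic enzyme (vertical axis) against that of the mitochondrial enzyme for the same amino acid (horizontal axis), 1 point per pair; the dashed line marks equal change. Of 17 points 16 lie below the line, and valine lies above it.

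The direct comparison of 6 h with 3 h called 0 of the 20 cytoplasmic and 0 of the 16 mitochondrial genes by edgeR, against 1.18% of all tested genes called lower and 0.455% called higher. The cytoplasmic median was -0.19, with 17 of 20 below 0. At an unadjusted p under 0.05 there were Cars (-0.29) and Farsb (-0.35) among cytoplasmic genes, and Pars2 (-0.75) and Rars2 (0.43) among mitochondrial ones. Of the 12755 tested genes 1272 were lower and 1043 higher at that threshold, so the member counts are near or below background. DESeq2 and limma-voom called 0 in both groups. A further fall between 3 h and 6 h was therefore not detectable for any single cytoplasmic member with 2 libraries a group.

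Several members share exon sequence with a neighbour in GENCODE M21, and because the strand used in counting is not given in the sources used here their values are uncertain. Aars overlaps Exosc6 on the same strand over 1326 bases. Exosc6, an exosome subunit, had a log2 change of 0.08 at 6 h, unlike Aars. Mars overlaps the opposite-strand stress gene Ddit3 over 68 bases, Hars and Hars2 overlap each other over 195, and Ears2 overlaps Ubfd1 over 89. Ubfd1 fell by 0.80 on the log2 scale at 6 h (edgeR adjusted p = 0.00542) while Ears2 rose. Iars2 overlaps Rab3gap2 on the opposite strand over 2034 bases. Farsb, Fars2, Yars, Cars, Cars2, Nars2 and Vars2 overlap other opposite-strand genes over 30 to 501 bases.

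The transcript with the longest coding sequence of each gene in GENCODE M21 was used to compare the compartments in length. The median coding length was 2073 bases for the cytoplasmic and 1612.5 for the mitochondrial genes, and the median 3' untranslated length was 254 and 560.5 bases. Median GC content was 50.9% and 52.8%. On the GRCm38 assembly, Nars lies at chr18:64499647-64516652, Mars at chr10:127296221-127311786, Tars at chr15:11382301-11399665 and Gars at chr6:55038007-55079500. Aars and Kars lie on the same chromosome, at chr8:111033144-111057664 and chr8:111993443-112011323. Ears2 lies at chr7:122037213-122067263 and Lars2 at chr9:123366927-123462666.

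Genes that surround synthetases in tRNA charging were read from 7 related lists, including the scaffold genes above. All levels and calls of these lists are on the TMM scale and are not given with library totals alone. The list of 29 ATF4 and amino acid response genes, in which synthetases were not included, had 12 called lower and 3 higher at 6 h, with a median of -0.52, where 14.3% of all tested genes were called lower and 14.8% higher. Atf4 itself rose, from 302 and 295 CPM in controls to 477 and 452 at 3 h and 466 and 464 at 6 h (edgeR adjusted p = 0.0107 and 0.00288). Ddit3, a transcription factor induced downstream of ATF4, had 1.93 and 1.96 CPM in controls, 4.84 and 6.41 at 3 h, and 4.95 and 5.14 at 6 h (edgeR adjusted p = 0.0379 and 0.0158). The third gene called higher was Atf3, named after its values were seen. These 3 were also the only genes of the list called at 3 h.

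Slc38a2, a transporter of small neutral amino acids, had the smallest p of that list at 6 h. It had 323 and 333 CPM in controls, 261 and 227 at 3 h, and 148 and 151 at 6 h (log2 -1.13, edgeR adjusted p = 0.000466). Asns, asparagine synthetase, which makes the substrate of Nars, was not called, with 213 and 176 CPM in controls, 175 and 160.5 at 3 h, and 176 and 157 at 6 h (log2 -0.23, edgeR adjusted p = 0.231). Nars fell by 0.76 in the same comparison. Between 3 h and 6 h, Slc38a2, Chac1 and Trib3 were called lower; Chac1 and Trib3 were named after their values were seen.

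Among 32 tested genes of tRNA maturation, modification and export, 5 were called higher and 5 lower at 6 h, with a median of 0.04, counts near the shares over all tested genes (14.8% higher and 14.3% lower). Xpot, the exporter of tRNA from the nucleus, had 184 and 241 CPM in controls, 146 and 161 at 3 h, and 126 and 109.6 at 6 h (log2 -0.85, edgeR adjusted p = 0.00525). The treated libraries of Xpot lay below both controls on the TMM scale. The others called lower were Clp1, Ssb, Adat3 and Ftsj1, and those called higher were Tsen15, Trmt61a, Trmt10c, Mettl1 and Wdr4, all named after their values were seen. Ftsj1, a tRNA methyltransferase, was the 1 gene of this list called at 3 h (-0.76, edgeR adjusted p = 0.0267).

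RNA polymerase III, which transcribes tRNA genes, was represented by 21 genes of its subunits and regulators, of which 3 were called higher and 3 lower at 6 h, again near the shares over all tested genes (14.8% and 14.3%). Polr3e, a subunit, fell from 21.3 and 28.3 CPM to 10.2 and 11.8 at 6 h (log2 -1.17, edgeR adjusted p = 0.00425). Polr3g, another subunit, and Maf1, a repressor of the polymerase, were the other 2 lower, and Crcp, Brf2 and Gtf3c5 were higher, all named after their values were seen. Of 12 mitochondrial translation factors, 2 were called higher and 1 lower at 6 h, also near those shares. Guf1, a mitochondrial elongation factor, rose from 11.7 and 7.82 CPM to 21.9 and 26.7 at 6 h (log2 1.29, edgeR adjusted p = 0.00702), and Mtrf1l (higher) and Tsfm (lower) were the others, also named after their values were seen.

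In the list of selenocysteine and mitochondrial glutamine and formyl-methionine routes, 7 genes were tested. Secisbp2, which binds the selenocysteine insertion element of mRNAs, rose from 5.71 and 3.42 CPM to 10.5 and 17.1 at 6 h (log2 1.56, edgeR adjusted p = 0.0125). Qrsl1, the subunit of the amidotransferase that makes mitochondrial glutaminyl-tRNA, fell by 0.59 on the log2 scale (edgeR adjusted p = 0.0245) and was named after its value was seen. Of 5 tested synthetase-like and editing genes, Tarsl2, a second threonyl enzyme with the symbol outside the rule, rose from 1.56 and 1.96 CPM (21 and 16 counts) to 4.98 and 3.99 at 6 h (log2 1.37, edgeR adjusted p = 0.0273), while Tars fell by 0.67.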

How the data were processed

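Raw counts by gene were deposited for 6 libraries of polyadenylated RNA; genome build mm10 is named in the submitters' processing notes, while aligner, counting program, annotation, strandedness and any molecular identifiers are not given in the sources used here. The series title says bulk and its design text single-cell; each file held 1 column and was treated as 1 bulk library. Groups came from sample titles. A gene was kept if 2 libraries had a CPM worth 10 counts at the median depth and its total was 15 counts or more. Counts were scaled by TMM and fitted with a mean per group over 6 libraries (edgeR 4.0.16 quasi-likelihood, R 4.3.3; 3 residual degrees of freedom), and two-sided p-values were adjusted over 12755 genes. Alternatives were limma 3.58.1 (voom), DESeq2 1.42.0, other scalings, filters and thresholds, the replicate block, thinning, and leaving out each library. The fit was tested on simulated data. Replicate libraries differed beyond counting noise (chi-square per degree of freedom 18.7 to 27.7 over genes with at least 20 counts). Pair ratios used log2 of CPM plus 0.5.

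Members and lists were chosen with earlier results of these data known. Values in all libraries are given for up to 10 cytoplasmic and up to 6 mitochondrial members with the largest change among those called at 6 h (10 and 1 met this), members called elsewhere, members against their compartment's median, and Gars, Kars and Lars2, and in each related list for the called gene with the smallest p at 6 h, with Atf4, Ddit3, Asns and Xpot; other members were added to account for the rest. Of the 37 members found by the rule, 1 is not reported here, and counts, sums and medians over members cover the other 36.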

Additional observations from a re-analysis of the deposited data

Results flagged for a closer look

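Rars2, the mitochondrial arginyl enzyme, stood on opposite sides of the controls at the 2 treatment times with TMM scaling, which is why it is given here. It had 38.2 and 42.2 CPM in controls, 33.9 and 33.3 at 3 h, and 44.9 and 45.9 at 6 h, so on the TMM scale both 3 h libraries lay below and both 6 h libraries above the controls. With library totals alone this pattern was absent: the 3 h libraries, at 34.3 and 34.4 CPM, lay between the controls at 33.4 and 36.8, and the 6 h libraries were at 49.8 and 51.8, with Rars2 called higher at 6 h. The direct comparison of 6 h with 3 h gave a log2 change of 0.43 ± 0.13 (SE), which did not pass after adjustment over all genes (edgeR adjusted p = 0.139).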

How the results depend on the processing

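With library totals alone, calls over all genes were 1316 higher and 57 lower at 3 h (459 and 166 with TMM), 3679 and 494 at 6 h (1882 and 1821), and 121 and 93 between times (58 and 151), and the all-gene medians were 0.25, 0.40 and 0.14. On that scale the cytoplasmic medians were -0.10 at 3 h and -0.16 at 6 h, with 1 called at 6 h, and the mitochondrial medians 0.36 at 3 h, 0.46 at 6 h and 0.16 between times, with 1 and 6 called at 3 h and 6 h. Without a filter, 3 cytoplasmic genes were called lower and 2 mitochondrial genes higher at 3 h, and 2 mitochondrial genes higher at 6 h. Over all 17485 genes that setting called 1221 higher and 595 lower at 3 h, and 2467 and 2107 at 6 h. DESeq2 called 4 and 1 at 3 h, where it called 786 higher and 661 lower over all genes. At a threshold of 0.01, 4 cytoplasmic genes were called lower and 0 mitochondrial genes were called at 6 h (Ears2 lost). Over the 12755 tested genes 809 were higher and 763 lower at that threshold. Thinning to the smallest library gave 10 cytoplasmic calls, all lower, and a mitochondrial median of 0.19 at 6 h. Of the 12004 genes tested after thinning, 1802 were called higher and 1716 lower at 6 h. Leaving out 1 library at a time gave 0 to 12 cytoplasmic and 0 to 2 mitochondrial calls at 6 h, 0 to 1 of each at 3 h, and mitochondrial medians from 0.039 to 0.23 at 6 h, from 0.087 to 0.25 at 3 h and from -0.045 to 0.070 between times; the lone library is assumed to vary like the other groups. Lars2 reversed at 6 h to 0.27 with library totals, 0.40 without control replicate 2 and 0.54 without 6 h replicate 1, and was -1.24 without 6 h replicate 2. The cause of these shifts was not tested.

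The labels number replicates 1 and 2 in every group. Deviations of same-numbered libraries correlated at 0.08 (control and 3 h), -0.02 (control and 6 h) and 0.02 (3 h and 6 h) over 12755 genes, so the numbers were not taken to pair the libraries. With the replicate block, 1 cytoplasmic gene was called lower at 3 h (Nars) and 11 at 6 h (all but Wars of the 12). The mitochondrial calls at 6 h were 1 (Ears2, higher). Over all 12755 genes the block gave 339 higher and 87 lower at 3 h, and 1783 and 1767 at 6 h. Ears2, with 39 to 54 control counts, kept its 6 h call when libraries were thinned to the smallest, while Iars and Wars lost theirs.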
